A study of Mus musculus with 217 samples.

Results

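The genes described here encode the proteasome of the mouse brain, together with its activators, its inhibitor and its assembly chaperones. They were the 50 protein-coding genes, of 54532 gene rows in the count tables, whose symbol starts with Psma, Psmb, Psmc, Psmd, Psme, Psmf or Psmg and continues with a digit, and 4 pseudogene rows with such names were left out. Of the 50, 31 are the core subunits of the standard particle, namely 7 alpha ring and 7 beta ring genes of the 20S cylinder and 6 ATPase and 11 non-ATPase genes of the 19S cap. The others are 3 chaperones of cap assembly (Psmd5, Psmd9 and Psmd10), 4 chaperones of cylinder assembly (Psmg1 to Psmg4), 5 activator genes (Psme1, Psme2, Psme2b, Psme3 and Psme4), the inhibitor Psmf1, the germ line subunit Psma8, the thymus subunit Psmb11, and the immunoproteasome genes Psmb8, Psmb9 and Psmb10, which were kept apart. Psmc3ip was matched by its symbol only, since its product is a factor of meiotic recombination and no proteasome subunit.

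The proteasome is the protease that degrades proteins tagged with ubiquitin. The cylinder holds the proteolytic sites inside its beta rings, the alpha rings gate the entrance, and the cap recognizes, unfolds and feeds in the substrate. The immunoproteasome subunits take the place of the standard catalytic beta subunits after interferon signaling, and Psme1 and Psme2 encode the alpha and beta chains of the interferon-inducible PA28 ring, which opens the cylinder without the cap. Proteasome function has long been studied in Huntington's disease because mutant huntingtin collects in ubiquitin-positive aggregates.

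RNA was sequenced from the striatum and the cortex of the same C57BL/6 mice, at 6 and at 12 months of age. LacQ140 mice (Hdh LacO-140Q/+ with the β-actin-LacIR transgene) carry 1 mutant Htt allele that the Lac repressor lowers in part unless the mice receive the inducer IPTG, which was given from embryonic day 5. The mutant groups were LacQ140 (IPTG throughout), LacQ140_A (never given IPTG, so lowered from conception), LacQ140_2M (IPTG withdrawn at 2 months) and, at 12 months only, LacQ140_8M (IPTG withdrawn at 8 months). The controls, WT and WT + IPTG, are labelled Hdh LacO-+/+ with the same transgene, while the study describes the LacO sites as placed in the Q140 allele and the controls as littermates with the repressor. Its β-actin promoter is active in nearly all cells, and mutants and controls alike carry it. The 217 libraries (107 of striatum and 110 of cortex) held 10 mice per group, 5 of each sex, except 9 (4 females and 5 males) in the 12-month striatum of WT, LacQ140 and LacQ140_8M. The labels give the 6-month and the 12-month libraries as different batches, so age and batch cannot be told apart and no test was made between ages.

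Library totals ranged from 33292057 to 68038831 counts. Htt, the targeted gene, was lower in LacQ140_A than in WT in all 4 sets, by 0.40 and 0.52 on the log2 scale in striatum at 6 and 12 months and by 0.60 and 0.72 in cortex (adjusted p = 0.00023, 6.5e-08, 3.6e-07 and 0.0041, edgeR's quasi-likelihood test), and these counts do not separate the mutant from the normal allele. All 8 markers of striatal spiny neurons were higher in striatum than in cortex at both ages, so the tissue labels held. In 1 striatal library, from 12-month LacQ140 mouse M2, the 6 markers of cortical excitatory neurons summed to 351 CPM (counts scaled to library size), against at most 48.4 in the other LacQ140 mice of that set and a median of 774 in WT + IPTG cortex. The 12-month calls that include that mouse are also given without it.

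All 50 genes had at least 1 count in each tissue and age and were tested. In every tissue and age, 47 of them had a mean of at least 1 CPM and 42 of at least 10 CPM. Psma8, Psmb11 and Psme2b were the ones below 1 CPM. Among the 31 core genes the coefficient of variation between mice of a group had a median of 8.57% (4.82% for Psmd2, the lowest, to 14.8%), which sets the size of difference that 10 mice per group can show.

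Transcript levels per length are given by the role of the product. In the 6-month striatum of WT + IPTG mice, the beta ring genes had a median of 127 CPM per kilobase of transcript, with Psmb6, a catalytic subunit, the highest at 215 ± 22.1 (SD, n = 10) and Psmb2 the lowest at 95.2 ± 10.9. The ATPases that unfold the substrate had a median of 86.1, from Psmc6 at 37 ± 4.61 to Psmc5 at 147 ± 8.13, and the alpha ring genes one of 81, from Psma3 at 43.3 ± 7.22 to Psma7 at 147 ± 19.5. The non-ATPases, which include the ubiquitin receptors and the deubiquitinase of the cap, had a median of 54.4, from Psmd11 at 19.7 ± 0.678 to Psmd4, a ubiquitin receptor, at 77.2 ± 5.57.

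Of the genes outside the particle, Psme2, Psme3 and Psme1 stood together on this scale at 34 ± 4.62, 33 ± 0.957 and 31.9 ± 4.33 CPM per kilobase, which do not differ beyond their spread, and Psme4, the gene of the PA200 cap, was at 5.71 ± 0.707. The assembly chaperones had medians of 16.2 for the cylinder and 13.4 for the cap. Psmf1, the inhibitor PI31, was at 7.85 ± 0.574. Of the immunoproteasome genes, Psmb10 was at 17 ± 2.62, Psmb8 at 3.42 ± 0.599 and Psmb9 at 1.95 ± 0.48, so Psmb10 was well above the spread of the other two while its standard counterpart Psmb7 was at 138 ± 15.1.

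Psme1 had the largest called change in the mutant striatum and Psme2 encodes its partner chain, so their promoters are shown. Both lie on chromosome 14 of GRCm38, Psme1 (ENSMUSG00000022216) at 55578123 to 55581529 on the plus strand and Psme2 (ENSMUSG00000079197) at 55587441 to 55591113 on the minus strand, 5911 bases apart. The sequences, from RefSeq on GRCm38.p6, run from 250 bases before to 30 bases after the RefSeq transcript start, at chr14:55578244-55578523 on the plus strand for Psme1 and chr14:55591072-55591351 on the minus strand for Psme2. Capitals mark GAAA, 2 bases of any kind and GAAA again, the core of the interferon-stimulated response element, here found on the opposite strand.
Psme1: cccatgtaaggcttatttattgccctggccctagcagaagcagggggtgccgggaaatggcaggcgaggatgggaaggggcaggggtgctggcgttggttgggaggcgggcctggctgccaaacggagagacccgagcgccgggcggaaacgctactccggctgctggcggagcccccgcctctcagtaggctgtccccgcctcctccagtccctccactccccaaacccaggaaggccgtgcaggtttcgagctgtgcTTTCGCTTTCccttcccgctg
Psme2: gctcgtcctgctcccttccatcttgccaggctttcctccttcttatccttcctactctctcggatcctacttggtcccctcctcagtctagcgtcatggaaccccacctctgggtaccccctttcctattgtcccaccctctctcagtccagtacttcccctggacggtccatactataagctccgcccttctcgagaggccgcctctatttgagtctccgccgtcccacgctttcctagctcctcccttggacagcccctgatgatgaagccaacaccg

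The Psme1 window held the response element core from base 10 of the transcript onward, and the Psme2 window did not hold it. Over windows of 300 bases, searched on both strands, that core occurred in 3.4% of all 32851 promoters in the table. It occurred for 5 of the 42 proteasome genes with a listed promoter (11.9%), namely Psmb3, Psmd4, Psmd9, Psme1 and Psmg4. Proteasome genes were counted once each, by a match in any of their promoters, so the shares differ in unit. TGACNNNGC, the core of the antioxidant response element, was found for 14.3% of the proteasome genes and in 12.4% of all promoters. TTCNNNGAA, the core of the gamma-activated sequence, was in 7.1% and 8.3%, and CCAAT in 35.7% and 37.4%. These are matches of letters, which describe the windows and say nothing of binding.

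The comparison of LacQ140 with WT + IPTG asks what full expression of the mutant allele did. In striatum at 6 months Psme1 and Psmf1 rose and the cap genes Psmc6 and Psmd12 fell slightly, and at 12 months 7 genes rose (Psme1, Psme2, Psmf1, Psmb10, Psmd1, Psmc6 and Psmc3ip) and none fell. Of all genes tested, 5.80% rose and 5.95% fell at 6 months and 7.08% rose and 6.92% fell at 12 months by the same test. With the further demand of a change of at least 20%, 1 of 50 was called at 6 months (Psme1) and 4 of 50 at 12 months (Psme1, Psme2, Psmb10 and Psmc3ip), where 7.93% and 9.44% of all genes tested were called. With the slope of each library's levels on transcript length (the length slope) as a covariate, 2 of 50 met the bound at 12 months, Psme1 and Psmb10. The share of proteasome genes in the reported fit was thus below that of all genes at 6 months and near it at 12 months. All genes tested include every gene with at least 1 count, while 47 of the 50 had a mean of at least 1 CPM. The shares are therefore not matched for level.

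The largest called change was that of Psme1. At 6 months it measured 25.7 CPM in the lowest, 34.9 in the median and 40.8 in the highest WT + IPTG mouse and 38, 44.9 and 57 in LacQ140. All 10 LacQ140 mice were above the WT + IPTG median and 7 were above every WT + IPTG mouse, although the groups overlapped. The log2 fold change was 0.36 ± 0.0819 (SE, n = 10 and 10, adjusted p = 0.0013). At 12 months WT + IPTG ran from 25.1 over 28 to 31 CPM and LacQ140 from 29.7 over 42.3 to 45.5, with 8 of 9 LacQ140 mice above every WT + IPTG mouse. The change was then 0.55 ± 0.071 (adjusted p = 8.3e-09), a 1.46-fold higher level. It was 0.53 without mouse M2, and with each library left out in turn it stayed between 0.31 and 0.38 at 6 months and between 0.53 and 0.60 at 12 months.

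**Figure D1:**
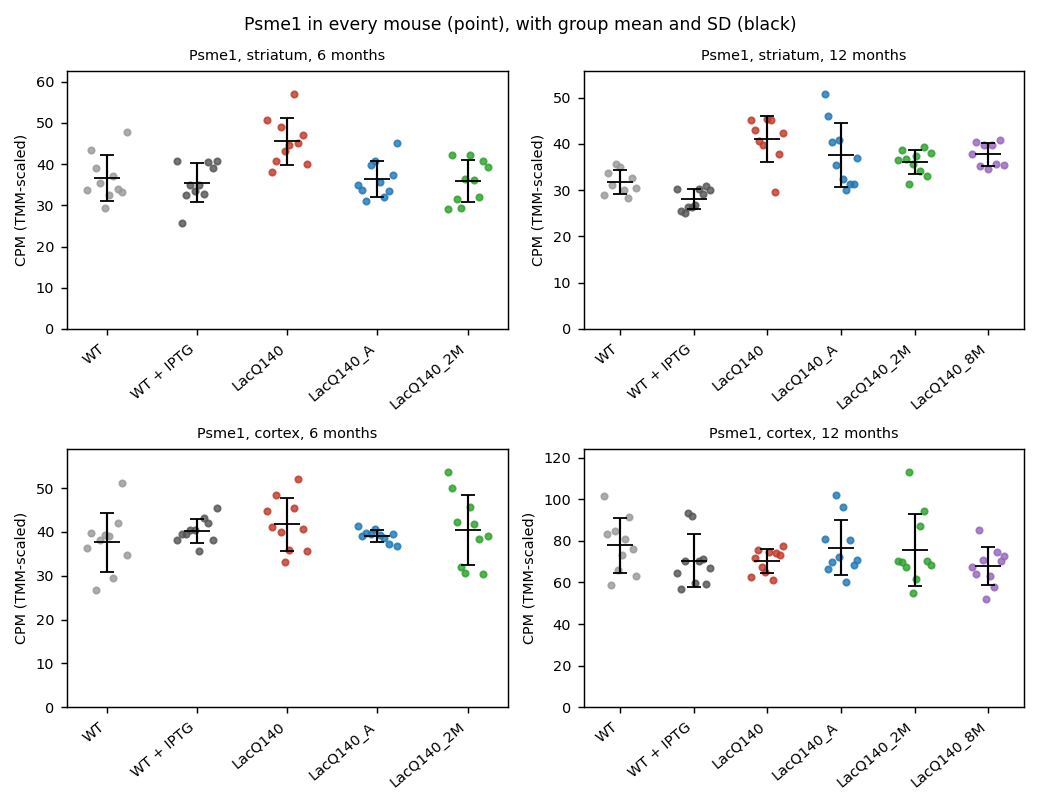
Psme1 in CPM (y axis, TMM-scaled) in every mouse (points) of each group (x axis), with the group mean and SD in black, for both tissues at both ages. In striatum LacQ140 has the highest median at each age (44.9 CPM at 6 months and 42.3 at 12 months, against 34.9 and 28 in WT + IPTG), although its mice overlap with those of WT + IPTG. The groups also overlap in cortex.

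Psme2, whose product pairs with that of Psme1 in the PA28 ring, did not pass the test at 6 months. It measured 24.4, 32.6 and 38.8 CPM (lowest, median and highest) in WT + IPTG and 27.1, 32.5 and 41.8 in LacQ140, which is a log2 difference of 0.00 ± 0.0782 (adjusted p = 1). Its 12-month values were 22, 23.8 and 27.6 in WT + IPTG and 21.7, 29.8 and 35.1 in LacQ140, with 6 of 9 LacQ140 mice above every WT + IPTG mouse and 1 below all of them. The rise was 0.31 ± 0.0723 (adjusted p = 0.0012), and 0.25, under the 20% bound, when each library's slope on transcript length was a covariate. Emc9, which lies between both genes and shares 14 of the 2209 exon bases of Psme1 on the opposite strand, did not pass the test (0.16 and 0.13, adjusted p = 0.25 and 0.39).

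Psmf1 encodes PI31, named for its inhibition of the cylinder in the test tube. At 6 months it was at 27.3, 29.6 and 33.8 CPM in WT + IPTG and at 33, 35.2 and 41.3 in LacQ140, where all 10 mice exceeded the WT + IPTG median. At 12 months the values were 26.6, 31.2 and 39.4 against 34.5, 38.5 and 40.8, and all 9 LacQ140 mice again exceeded that median, with only 2 above every WT + IPTG mouse. The log2 changes were 0.26 ± 0.0501 (adjusted p = 0.00013) and 0.25 ± 0.0576 (adjusted p = 0.0011), both just under the 20% bound. Beside this, Psmf1 was lower in WT + IPTG than in WT at 12 months by 0.18, a difference that did not pass the test (adjusted p = 0.16), and the WT mice at 32.6, 36.6 and 39.4 CPM overlapped widely with LacQ140.

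Of the immunoproteasome genes, Psmb10 passed the test in the 12-month striatum and Psmb8 and Psmb9 did not. Psmb10 measured 13.2, 17.9 and 23.5 CPM in 12-month WT + IPTG striatum and 17.4, 22.4 and 29.1 in LacQ140, a rise of 0.33 ± 0.092 (adjusted p = 0.0066) with 3 of 9 mice above every WT + IPTG mouse. Its highest value came from mouse M2, without which the rise was 0.28 and still called. At 6 months the difference was 0.19 ± 0.0972 (adjusted p = 0.23), and 0.22 (adjusted p = 0.0042) with the length slope as a covariate. Psmb8 was at 4.15, 5.19 and 8.46 CPM in 12-month WT + IPTG and 4.37, 5.05 and 6.54 in LacQ140, and Psmb9 at 1.49, 2 and 2.53 against 1.41, 1.96 and 3.18. Neither passed the test (−0.11 ± 0.107 and 0.03 ± 0.128, adjusted p = 0.65 and 0.99), nor did either at 6 months (−0.10 ± 0.0971 and −0.13 ± 0.134, adjusted p = 0.64 and 0.66). Of the 10 genes listed for class I antigen presentation, which share interferon control with this set, none passed the test at 6 months, and at 12 months Erap1 rose (0.26) and Nlrc5 fell (−0.81). The 4 T-cell markers summed to at most 0.791 CPM in any mouse of these groups.

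**Figure D2:**
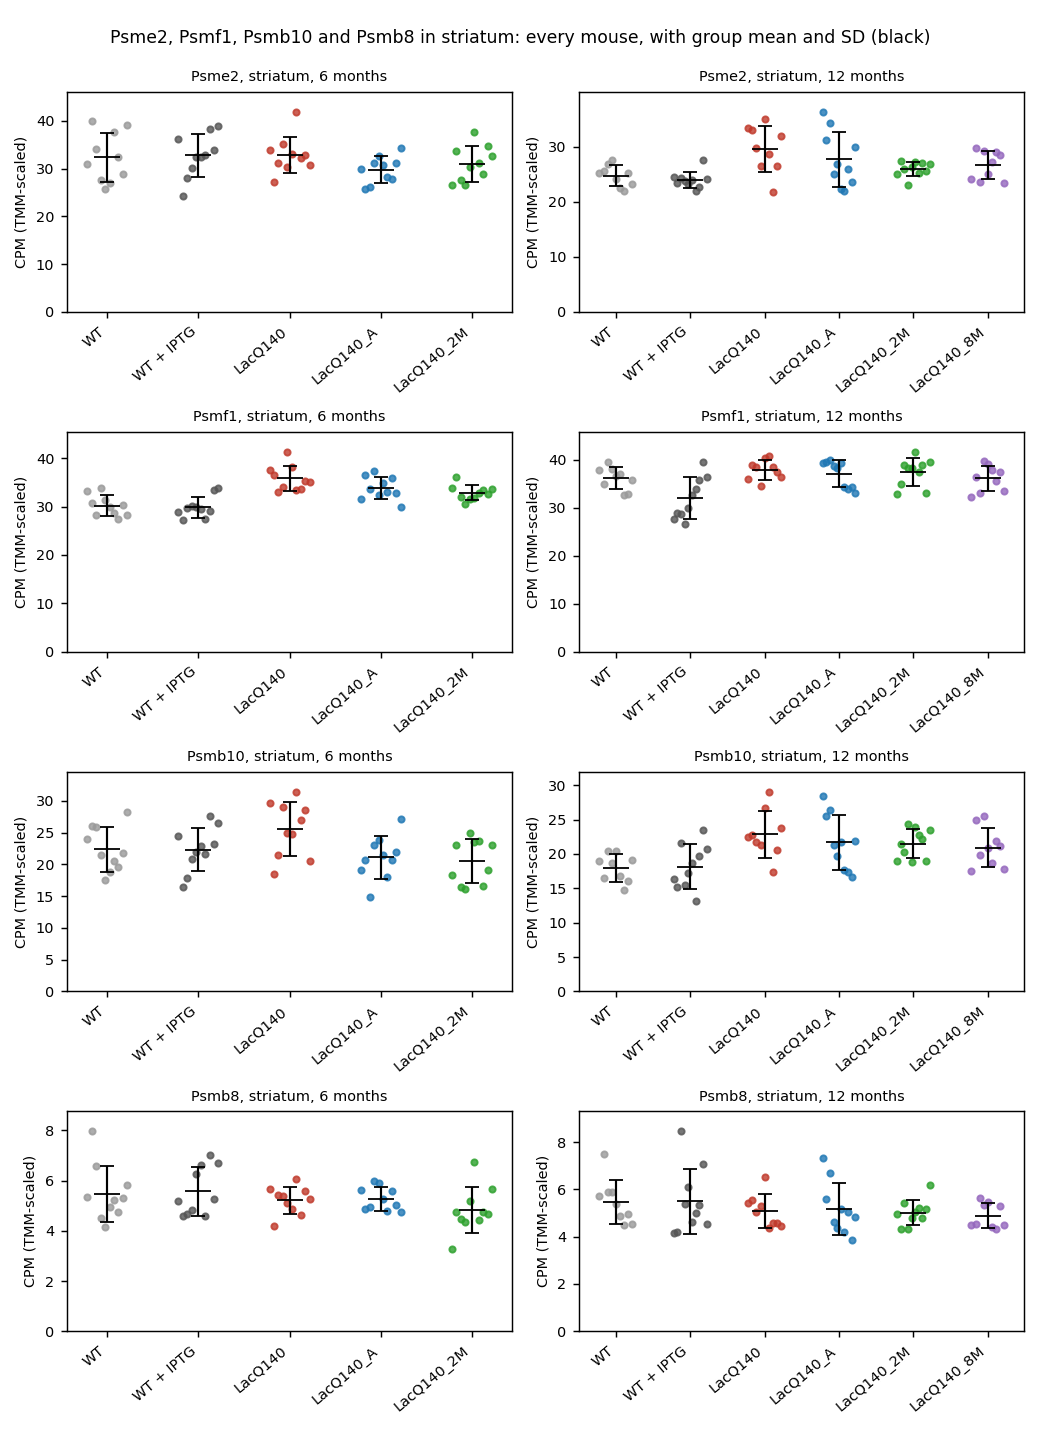
Psme2, Psmf1, Psmb10 and Psmb8 in striatum in CPM (y axis, TMM-scaled), with every mouse as a point, the group mean and SD in black, and the groups along the x axis at 6 and 12 months. The LacQ140 median of Psmf1 is above that of WT + IPTG at both ages (35.2 against 29.6 CPM and 38.5 against 31.2), as is that of Psmb10 (25.9 against 22.4 and 22.4 against 17.9), while those of Psme2 differ at 12 months (29.8 against 23.8) and those of Psmb8 lie close together.

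The 31 core subunits changed little. At 6 months 23 of them lay below 0 with a median log2 change of −0.045, and at 12 months 26 lay above 0 with a median of 0.052, each beside a median over all genes tested close to 0. Psmc6, an ATPase of the cap, was at 70.5, 82.3 and 96.3 CPM in WT + IPTG and 59.1, 72.5 and 81 in LacQ140 at 6 months, and all 10 LacQ140 mice were below the WT + IPTG median. At 12 months it went the other way, at 50.7, 55.1 and 58.8 against 55.2, 61.5 and 62.2. The log2 changes were −0.20 ± 0.0699 (adjusted p = 0.047) and 0.14 ± 0.0459 (adjusted p = 0.034), and with single mice left out they passed the test in 7 of 20 and 10 of 19 fits.

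Psmd12, a scaffold subunit of the cap's lid, fell at 6 months from 63.3, 66 and 76.8 CPM to 57.8, 61.1 and 67.3 (−0.14 ± 0.0479, adjusted p = 0.0495). It passed the test in 8 of 20 fits with 1 mouse left out, and at 12 months it was 0.09 ± 0.0429 higher (adjusted p = 0.16). Psmd1, the large scaffold of the cap's base, had medians of 120 CPM in WT + IPTG and 119 in LacQ140 at 6 months (−0.01 ± 0.039, adjusted p = 0.93) and rose at 12 months from a median of 123 and a highest value of 130 in WT + IPTG to 128, 137 and 147 CPM. All 9 LacQ140 mice were then above the WT + IPTG median (0.14 ± 0.0386, adjusted p = 0.0064). The exons of Psmd1 overlap those of Gm21972 on the same strand and of Htr2b on the other, so its counts are uncertain to that extent. Psmc3ip rose from 3.74, 4.5 and 5.74 to 5.01, 5.43 and 6.23 CPM at 12 months (0.27 ± 0.0753, adjusted p = 0.0074, and 0.24, under the bound, with the length slope as a covariate), and its exons overlap those of Mlx. Without mouse M2 the 12-month changes were 0.31 for Psme2, 0.23 for Psmf1, 0.14 for Psmd1, 0.15 for Psmc6 and 0.29 for Psmc3ip, and each passed the test.

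**Figure D3:**
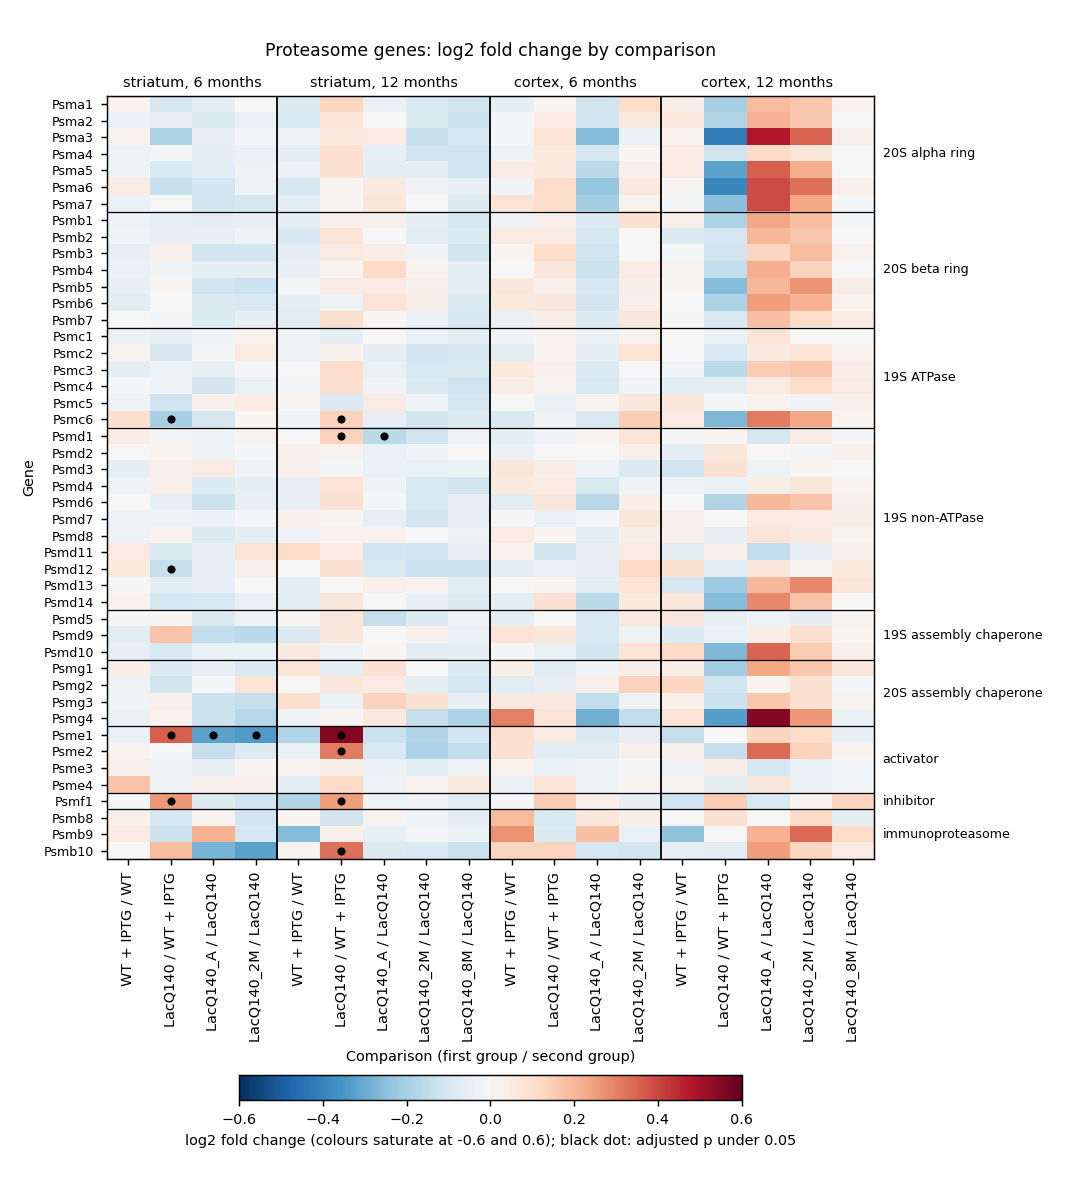
The log2 fold change (color, saturating at −0.6 and 0.6) of 46 proteasome genes (rows, by role) in 18 comparisons within a tissue and age (columns), with black dots at an adjusted p under 0.05. Psma8, Psmb11, Psme2b and Psmc3ip are not drawn. The dots sit on Psme1, Psme2, Psmf1, Psmb10, Psmc6, Psmd1 and Psmd12 in striatum, and the 12-month cortex shows the widest colors without a dot.

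The other genes of the pathway are given by their counts, beside 11.8% and 14.0% of all genes that passed the test in either direction at 6 and 12 months. Of 10 partners without a Psm symbol that were measured, 1 fell at 6 months (Akirin2, −0.19) and 1 rose at 12 months (Uchl5, a deubiquitinase of the cap, 0.20). Of 6 regulators of proteasome genes, Nfe2l3 rose at both ages (0.52 and 0.80), Hsf1 fell at both (−0.25 and −0.24) and Nfe2l1, which drives the bounce-back of subunit genes when the proteasome is inhibited, fell at 12 months (−0.15). Of 19 ubiquitin and shuttle genes, 2 rose and 3 fell at 6 months and 4 rose and 1 fell at 12 months, with the shuttle Ubqln4 falling (−0.21 and −0.46) and the ubiquitin-activating Uba1 (0.12 and 0.13) and the receptor Sqstm1 (0.20 and 0.15) rising at both ages.

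Markers of spiny neurons, the main striatal neuron, fell in 7 of 8 at both ages, and their summed level went from 5690 to 8380 CPM in WT + IPTG to 4590 to 5910 in LacQ140 at 6 months and from 6930 to 9670 down to 3970 to 4990 at 12 months. In whole tissue, fewer cells of a type and less RNA per cell cannot be told apart. Microglial markers fell in 5 of 8 and 2 of 8, astrocyte markers in 3 of 5 and 2 of 5, oligodendrocyte markers in 3 of 5 and 2 of 5 and endothelial markers in 3 of 5 and 4 of 5, and none of these rose. Of 6 cortical excitatory markers, 1 rose and 1 fell at 6 months and 3 rose at 12 months, while the 4 T-cell markers did not pass the test. The part of these shifts in the values of Psme1, Psme2, Psmf1 and Psmb10 was not tested.

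The lowering comparisons ask whether these levels came back when the mutant allele was partly repressed, and they share the LacQ140 mice with the comparison above. LacQ140 was on IPTG and the lowered groups were off it when sampled. These comparisons therefore cannot separate lowering of the allele from the absence of IPTG. At 6 months 1 of 50 genes, Psme1, was called in each (background 1.88% of all genes for lowering from conception and 1.26% for lowering from 2 months). Psme1 was at 31, 35.2 and 45.1 CPM in LacQ140_A and 29.2, 36.2 and 42.3 in LacQ140_2M, against 38, 44.9 and 57 in LacQ140, and 7 and 6 of 10 mice were below every LacQ140 mouse. The log2 changes were −0.32 ± 0.082 (adjusted p = 0.014) and −0.34 ± 0.0819 (adjusted p = 0.012). Psmb10 was lower by 0.28 and 0.32 without passing the test (adjusted p = 0.14 and 0.085), and Psmf1 differed by −0.08 and −0.12 (adjusted p = 0.56 and 0.27).

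At 12 months no proteasome gene met the 20% bound with lowering from conception, from 2 months or from 8 months, where 0.910%, 0.608% and 0.00565% of all genes did, and DESeq2 also called 0 in each. At an unadjusted p under 0.05 there were 5, 11 and 9 of 50, beside 10.4%, 8.32% and 5.13% of all genes. Psmd1 alone passed the adjusted p, in LacQ140_A (1.25% of all genes passed there), where it measured 107, 122 and 134 CPM against 128, 137 and 147 in LacQ140 (−0.16 ± 0.0386, adjusted p = 0.016) with 9 of 10 mice below every LacQ140 mouse. It missed the test with only the groups compared in the fit (adjusted p = 0.17) and was −0.16 (adjusted p = 0.032) without LacQ140 mouse M2. It was at 112, 126 and 135 in LacQ140_2M (−0.12 ± 0.0386, adjusted p = 0.17) and at a median of 133 and a highest of 140 in LacQ140_8M (−0.02 ± 0.0396, adjusted p = 0.95).

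Psme1 in the 12-month striatum was at 30.1, 36.2 and 50.8 CPM in LacQ140_A, at 31.3, 36.6 and 39.2 in LacQ140_2M and at 34.6, 37.8 and 40.9 in LacQ140_8M. These medians lie between those of WT + IPTG (28) and LacQ140 (42.3) and above that of WT, the control without IPTG. The differences from LacQ140 did not pass the test (−0.13, −0.18 and −0.12, adjusted p = 0.56, 0.35 and 0.86). Whether Psme1 differs in its response to lowering between the ages was not tested. Psme2 differed from LacQ140 by −0.09, −0.19 and −0.15 and Psmb10 by −0.08, −0.09 and −0.13, none past the test (lowest adjusted p = 0.34 for Psme2 and 0.80 for Psmb10).

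LacQ140_A against WT, both without IPTG, shows what remained when the allele was partly repressed from conception. At 6 months no proteasome gene passed, and DESeq2 called 0 with the bound, which 0.910% of all genes met by edgeR. At an unadjusted p under 0.05 there were 24 of 50, beside 12.5% of all genes. The gene lowest in adjusted p was Psmf1 (0.16 ± 0.0502, adjusted p = 0.09). The core subunits then had a median of −0.126, with 30 of 31 below 0, which was −0.083 with the length slope as a covariate. At 12 months 0 of 50 met the bound (background 3.15%), by DESeq2 as well, with 5 under an unadjusted p of 0.05 (14% of all genes), and Psme1 passed the adjusted p alone, as did 4.85% of all genes. It was at 28.4, 31.1 and 35.7 CPM in WT and 30.1, 36.2 and 50.8 in LacQ140_A, with 5 of 10 LacQ140_A mice above every WT mouse (0.24 ± 0.0712, adjusted p = 0.029). The highest LacQ140_A value came from mouse F1, whose striatal library also had the highest sum of cortical excitatory markers in its group (139 CPM, against a group median of 47.5), and without it the difference was 0.19 (adjusted p = 0.11). It also missed the test with only the groups compared in the fit (0.24, adjusted p = 0.099), and without LacQ140_A mouse F2, F3 or F5 or WT mouse F1, M2 or M3, and ranged from 0.19 to 0.28 over the 19 fits with 1 mouse left out.

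IPTG by itself, in WT + IPTG against WT, called 0 of 50 genes in any tissue and age by edgeR or DESeq2 (background 0.584% and 0.218% in striatum and 0.609% and 0% in cortex, at 6 and 12 months). At an unadjusted p under 0.05 there were 1 and 5 of 50 in striatum, beside 8.88% and 11.4% of all genes, and 0 of 50 at either age in cortex, beside 11.9% and 5.8%. The lowest adjusted p belonged to Psme4 (0.42) and Psmf1 (0.16) in striatum and to Psmb9 (0.52) and Psmg2 (0.91) in cortex. Psme1 differed by −0.04 ± 0.082 and −0.18 ± 0.0714 in striatum (adjusted p = 0.95 and 0.28).

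In cortex no proteasome gene was called in any of the 11 comparisons within an age, by edgeR or by DESeq2. In LacQ140 against WT + IPTG, 0.881% and 0.0899% of all genes were called at 6 and 12 months. At an unadjusted p under 0.05 there were 1 and 12 of 50 proteasome genes, beside 9.94% and 8.68% of all genes. Psmf1 had the lowest adjusted p at 6 months, at 33.4, 35.6 and 41.9 CPM in WT + IPTG and 35.2, 40.3 and 45.3 in LacQ140 (0.15 ± 0.0561, adjusted p = 0.21). Psma6, an alpha ring gene, had it at 12 months (adjusted p = 0.43). Psme1 did not pass the test, at 35.6, 40 and 45.4 against 33.1, 40.8 and 52 CPM at 6 months (0.05 ± 0.0873) and 57.1, 68.6 and 93.2 against 61.2, 72.5 and 77.4 at 12 months (−0.00 ± 0.101).

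For the other cortical comparisons, 0.00834% and 0.0435% of all genes were called with lowering from conception at 6 and 12 months, 0% and 0.0841% with lowering from 2 months, 0% with lowering from 8 months, and 0.425% and 0.0174% in LacQ140_A against WT. At an unadjusted p under 0.05, lowering from conception had 5 of 50 proteasome genes at 6 months and 18 of 50 at 12 months, beside 7.47% and 13.2% of all genes. Lowering from 2 months had 3 and 6 (9.72% and 5.51% of all genes), lowering from 8 months 0 (2.83%), and LacQ140_A against WT 10 and 2 (11.6% and 5.79%). The genes lowest in adjusted p were Psmd6 (0.41) and Psmg4 (0.19), Psmd12 (0.40) and Psmd13 (0.79), Psmf1 (1) and, last, Psmf1 (0.16) and Psme2b (0.81). When only both groups compared were fitted, 3 alpha ring genes were called at 12 months in LacQ140 against WT + IPTG (Psma3 −0.42, Psma6 −0.39 and Psma5 −0.32), and 9 genes with lowering from conception, where that fit called 441 and 1896 genes in all.

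The difference of the mutant effect between tissues, tested within mice of both tissues, was called for none of 50 genes at 6 months (background 1.12%, with Psme1 lowest at adjusted p = 0.33). At 12 months it was called for Psme1, whose effect was higher in striatum by 0.51 ± 0.14 on the log2 scale (adjusted p = 0.023, background 2.82%). Without the striatal library of mouse M2, the only one left out here, the difference was 0.47 (adjusted p = 0.065) and 0 of 50 genes were called. At an unadjusted p under 0.05 there were 4 of 50 genes at 6 months and 11 of 50 at 12 months, beside 8.62% and 11.7% of all genes. For Psme2 and Psmb10 the difference was 0.41 ± 0.148 and 0.38 ± 0.128 (adjusted p = 0.15 and 0.11), and for Psmf1 it was 0.10 ± 0.0583 at 6 months and 0.06 ± 0.0835 at 12 months (adjusted p = 0.76 and 1).

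The summed level of the core subunits was set beside the length slope of each library. For each library, log2 CPM was regressed on log2 transcript length over expressed genes, and the slope says how far long transcripts were counted above short ones. The slope had group medians of 0.331 to 0.375 and 0.393 to 0.475 in striatum at 6 and 12 months and of 0.28 to 0.362 in cortex at 6 months, but of −0.201 (LacQ140_A) to −0.091 (LacQ140_8M) in cortex at 12 months. Taken as deviations from the group means, summed core CPM fell as the slope rose, with Pearson's r = −0.91 and Spearman's rho = −0.91 over 50 mice in 6-month striatum, −0.91 and −0.84 over 57 in 12-month striatum, −0.80 and −0.81 over 50 in 6-month cortex and −0.96 and −0.96 over 60 in 12-month cortex. Most core genes have short transcripts and enter the slope themselves, so a negative relation is partly built in, and it is given as a description with no test, since other genes of the same length were not compared. Without the 2 mice farthest from the median slope, r was −0.90, −0.88, −0.79 and −0.96.

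**Figure D4:**
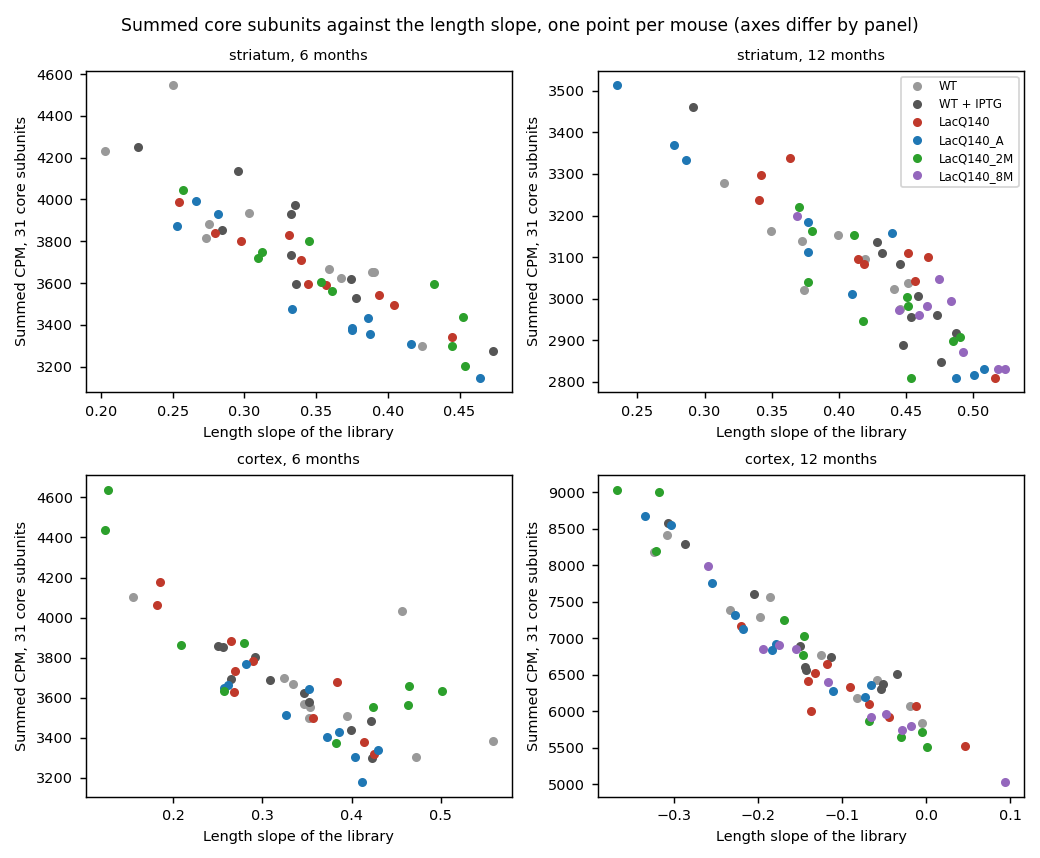
Summed CPM of the 31 core subunits (y axis) against the length slope of the library (x axis, change in log2 CPM per log2 transcript length), with 1 point per mouse colored by group, for each tissue and age with axes of their own. In all 4 panels the sum falls as the slope rises, and in the 12-month cortex it runs from 9040 to 5030 CPM.

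In 12-month cortex the core median was −0.122 in LacQ140 against WT + IPTG, where 26 of 31 genes were below 0, and 0.178 with lowering from conception and 0.156 with lowering from 2 months, where 27 and 28 of 31 were above 0. With the slope as a covariate these medians were −0.053, 0.02 and 0.019. In LacQ140_8M the alpha ring genes stayed close to LacQ140, with means of 163 against 161 CPM for Psma1 and 374 against 377 for Psma7. In striatum the corresponding medians of the mutant effect were −0.029 at 6 months and 0.041 at 12 months with the slope and −0.045 and 0.052 without it. The Psme1 change with the slope as a covariate was 0.38 and 0.50.

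Striatum was set against cortex within WT + IPTG, with both tissues of an age on 1 scale. At 6 months 8 of 50 proteasome genes were called, where 27.5% of all genes were, and 15 passed the adjusted p alone, where 33.2% did. Psmb10 was at 16.4, 22.2 and 27.4 CPM in striatum and 47.3, 56.3 and 72.3 in cortex, lower in striatum in 10 of 10 mice (−1.39 ± 0.116, adjusted p = 8.2e-16). Psmb8 and Psmb9 differed by −0.08 ± 0.0937 and −0.22 ± 0.112 (adjusted p = 0.65 and 0.14). Psmc3ip was at 4.92, 5.94 and 6.86 in striatum and 1.97, 2.41 and 3.02 in cortex (1.26 ± 0.0988, adjusted p = 5.7e-17).

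Of the core genes, 8 were higher and 1 lower in striatum at 6 months by the adjusted p (17.0% and 16.2% of all genes), and 4 of those higher met the bound. The ATPase Psmc2 was at 112, 123 and 137 CPM against 87.1, 95 and 99.4 (0.39 ± 0.0437) and Psmd1 at 107, 119 and 127 against 84.2, 91.4 and 101 (0.36 ± 0.0514), both without overlap. Psmd6 (0.31) and the beta subunit Psmb2 (0.31) followed. Psmf1 was lower in striatum, at 27.1, 29.2 and 33.5 against 33, 35.8 and 42.5 CPM (−0.29 ± 0.0414, adjusted p = 2.1e-08), and Psmb11 was called at levels under 1 CPM (−1.43). The median of the 31 core genes was 0.057.

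At 12 months 45 of 50 genes were called, where 45.3% of all genes were, in a cortex set whose length slopes had the opposite sign to the others, 4 of them higher and 41 lower in striatum (22.4% and 22.9% of all genes), and the core median was −1.415. Psmb10 was at 12.4, 17 and 22.2 CPM against 100, 126 and 145 (−2.87 ± 0.0933), the alpha subunit Psma7 at 73.4, 81.8 and 105 against 381, 466 and 661 (−2.50 ± 0.115) and Psma2 at 77.4, 85.8 and 99 against a median of 294 and a highest of 389 (−1.87 ± 0.0811). The other genes with the lowest p were Psma6 (−2.42), Psma5 (−2.36), Psmd10 (−2.09), Psmd14 (−2.02), Psmc6 (−1.98), Psmb4 (−1.69), Psmb3 (−1.65), Psmb7 (−1.48) and Psmd8 (−1.42). Those higher in striatum were Psmd3 (0.65), Psmd11 (0.59), Psmd2 (0.33) and Psme2b (2.17), the last at under 1 CPM, and Psmf1 differed by 0.11 ± 0.0578 (adjusted p = 0.11).

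Transcript length moved with this 12-month difference over the whole transcriptome. Among genes of at least 1 CPM, the median log2 difference between striatum and cortex rose from −1.61 for 1062 other genes with transcripts under 1000 bases to 1.4 for 2795 of at least 5000 bases. The proteasome genes had medians of −1.59 (8 genes) under 1000 bases, −1.19 (17 genes) up to 1500, −0.99 (12 genes) up to 2500 and 0.26 (9 genes) up to 5000, beside −1.61, −0.92, −0.21 and 0.58 for the other genes of those classes. Spearman's rho of length with the difference was 0.58 over 14790 genes and 0.53 over 47 proteasome genes at 12 months, and 0.04 and 0.05 at 6 months, given as a description since genes of the same libraries are not independent. The labels give 1 library protocol for all libraries, and whether the preparation of the 12-month cortex set differed, and the part of length in the 12-month difference of the proteasome genes, was not tested.

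**Figure D5:**
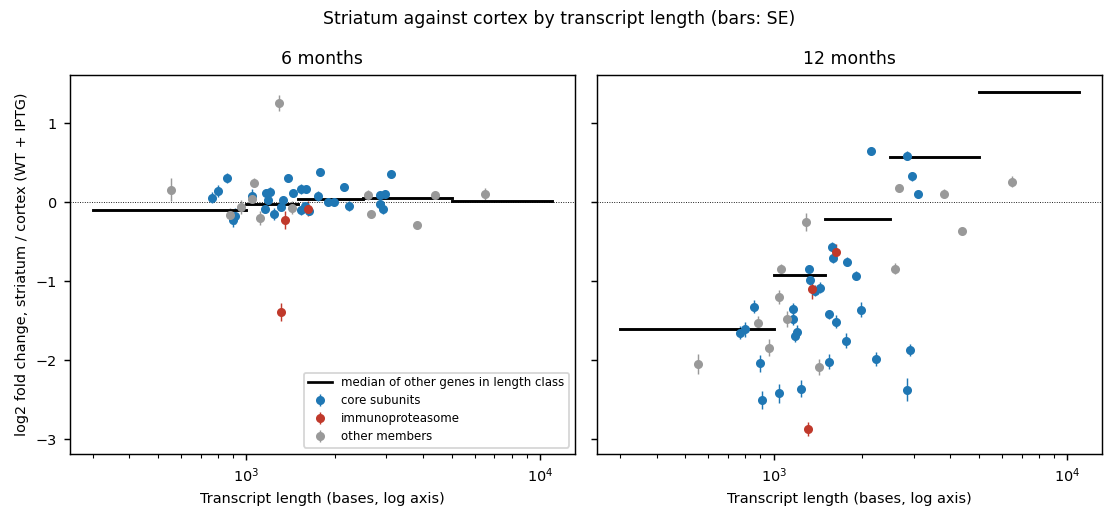
The log2 fold change of striatum over cortex in WT + IPTG (y axis, bars are SE) against transcript length in bases (x axis, log scale) for the proteasome genes, with black lines at the median, from mean CPM, of other genes in each length class, at 6 and 12 months. At 6 months the class medians lie between −0.1 and 0.05, and at 12 months they climb from −1.61 to 1.4 with most core genes below 0 and Psmb10 lowest at −2.87.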

How the data were processed

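The authors deposited expected counts per gene, not normalized, in 1 table per age, from RNA-seq of 217 libraries on a NovaSeq with paired-end reads. Per the labels and the submitters' processing notes the genome build was GRCm38, and the aligner, the quantifier and the strand setting are not given in the sources used here. Of the nonzero deposited values 32.22% were not whole (tolerance 1e-06), and they were rounded. Of 54532 rows, 54495 matched GENCODE vM21, which gave symbols, positions and exons. Expected counts share reads between overlapping genes by estimate, so such genes are less certain.

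The main test was edgeR's quasi-likelihood F-test (edgeR 4.0.16, R 4.3.3) with TMM normalization, over genes with at least 1 count, with all groups of a tissue and age in 1 fit, following the study's call rule of a Benjamini-Hochberg adjusted p under 0.05 and a change of at least 20% (0.263 on the log2 scale). "Passed" without mention of the bound means the adjusted p alone. The tests covered 35808 and 35386 genes in striatum and 35987 and 34493 in cortex at 6 and 12 months. Tissues were compared in 1 fit per age with the mouse as a block. SE is the absolute log2 fold change over the square root of F. CPM are TMM-scaled, and 3 values in a row are the lowest, the median and the highest mouse of a group. CPM per kilobase used 1 transcript per gene, a protein-coding one of the basic set first, then by APPRIS, support level and length. Each replicate was a mouse. No 2 of the 963 library pairs within groups agreed within sampling noise (smallest chi-square over degrees of freedom 6.15).

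Alternatives were DESeq2 1.42.0 without independent filtering, filterByExpr, RLE size factors, sex, the replicate number as a block, only the groups compared, the length slope (genes of mean CPM at least 1), no fold bound, and, chosen after seeing the data, leaving out single libraries. The scripts were tested on simulated data. Genes named are those called in any comparison (up to 12 by adjusted p), those past the adjusted p in the mutant comparisons, the immunoproteasome genes, and the gene of lowest p where none passed. The genes, lists and tests were chosen with earlier results of these data known.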

Additional observations from a re-analysis of the deposited data

Results flagged for a closer look

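Psme1 in the 12-month striatum had 1 LacQ140 mouse, M3, far below the other 8, at 29.7 CPM with the next at 37.8, and without it the rise over WT + IPTG was 0.60 (adjusted p = 2.3e-10, edgeR's quasi-likelihood test). Psme2 in the same tissue and age had WT + IPTG mouse M4 far above the other 9, at 27.6 CPM with the next at 24.5. Psmd1 in the 6-month striatum had WT mouse M5 at 132 CPM with the next at 120, and Psmb8 in the 12-month striatum had WT mouse F2 at 7.51 CPM with the next at 5.88. Dixon's criterion marked these 4 groups of values, which is 3.31% of the groups it was applied to, where chance alone marks about 1 in 20.

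The effect of mutant huntingtin on Psme1 differed between the tissues at 12 months, being higher in striatum by 0.51 on the log2 scale (adjusted p = 0.023), and by 0.53 (adjusted p = 0.0053) without the mouse as a block. Without the striatal library of LacQ140 mouse M2, which had the highest cortical marker sum of its group, it was 0.47 (adjusted p = 0.065).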

How the results depend on the processing

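Over 26 counts of called proteasome genes, 183 of 192 alternative values stayed within 1.5 times the reported count. Of 1178 values for single genes, 1127 kept their side of the threshold, 49 lost the call and 2 gained it. Direction was followed only for results that passed, and none of these reversed. Among results that did not pass, some values near 0 changed sign. Psmb9 in the mutant comparison of the 12-month striatum (0.03) ran from −0.08 to 0.09 with single libraries left out. Without the fold bound the mutant comparison in striatum counted 4 genes at 6 months (1 with it) and 7 at 12 months (4 with it), lowering from conception and LacQ140_A against WT in the 12-month striatum 1 each (0 with it), and striatum against cortex at 6 months 15 (8 with it). With the length slope as a covariate the mutant comparison in the 12-month striatum called 2, Psme1 and Psmb10. filterByExpr called 1 in LacQ140_A against WT in the 12-month striatum. With only the groups compared, the 12-month cortex gave 3 genes for the mutant comparison and 9 for lowering from conception, where 0 were called. The causes were not tested.

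With single libraries left out, the mutant comparison in striatum called 1 to 2 genes at 6 months (2 without LacQ140 F3, F4, M2, M3 or M4 or WT + IPTG M4 or M5) and 3 to 5 at 12 months, and LacQ140_A against WT in the 12-month striatum 0 to 2 (1 without LacQ140_A M1 or WT F5, 2 without LacQ140_A M2, M3 or M4). Without the striatal library of LacQ140 M2 the tissue difference of the mutant effect at 12 months was called for 0 genes (1 with it), and the 3 lowering comparisons in the 12-month striatum again called 0. At 6 months Psmc6 missed the test without LacQ140 F1, F2, F3, F5, M1, M3 or M5 or WT + IPTG F1, F5, M1, M2, M3 or M5 (−0.21 to −0.17), and Psmd12 without the same mice apart from WT + IPTG M1 (−0.14 to −0.12). At 12 months Psmc6 missed it without LacQ140 F1, F4, M1, M4 or M5 or WT + IPTG F2, F4, F5 or M5 (0.12 to 0.13).

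Replicate numbers were not taken to pair the mice of different groups. Same-numbered pairs had mean correlations of −0.048 and −0.029 in striatum at 6 and 12 months and −0.029 in 6-month cortex. For other pairs of the same sex these were 0.012, 0.008 and 0.01. In 12-month cortex the means were 0.047 and −0.011. Of 485 same-numbered pairs 167 correlated above 0.1, a share not counted for the other pairs. With the replicate number as a block the mutant comparison in striatum still called 1 and 4 genes, and Psmc6 (adjusted p = 0.058 and 0.053) and Psmd12 (−0.13, adjusted p = 0.067) missed the test. Psme1 was then 0.36 (adjusted p = 0.002) and 0.55 (adjusted p = 2e-08).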
